A study of Mus musculus with 18 samples.

Results

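Expression of 48 genes of the cell division cycle was examined in small intestinal organoids that had been stimulated through adrenergic receptors. The genes were picked by symbol as a panel of DNA replication, S phase, G2 and mitosis genes together with Mki67 and Top2a, and each of the 48 symbols was found among the 55487 genes of the deposited count table. They were set apart as 20 S phase genes, 23 G2 and mitosis genes, 3 genes of G1 (Ccnd1, Ccnd2 and Cdk4) and 2 inhibitors of the cyclin-dependent kinases (Cdkn1a and Cdkn1b). All 48 passed the filter on low counts, which left 15247 genes. The least counted was Ccne2, with at least 312 reads in every library.

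The organoids were grown from the small intestine of wild-type (WT) female C57BL/6 mice and were passaged before treatment. They were exposed for 4 days to 1 µM norepinephrine, a general agonist of α- and β-adrenergic receptors dissolved in HCl, to 1 µM UK 14,304, an agonist specific for α2-adrenergic receptors dissolved in DMSO, or to the solvent alone. The 18 bulk RNA libraries comprised 4 of HCl vehicle, 5 of norepinephrine, 4 of DMSO vehicle and 5 of UK 14,304. Labels number them m1 to m5, and number 5 occurs only among the agonist libraries. An organoid is an epithelial culture with no nerve, muscle or immune cells of its own, which limits it as a model of innervated intestine. Epithelial RNA was present as labelled: 6 epithelial markers, among them Epcam and Cdh1, summed to between 6039 and 6849 normalized CPM in the 18 libraries. CPM are reads per gene scaled to a common library size. Of 12 markers of fibroblasts, muscle, blood, vessel and glial cells, the 6 that were tested summed to under 10 CPM. The rest, Col1a1, Col1a2, Col3a1, Pdgfra, Acta2 and Cd3e, were too low to be tested and are not in that sum.

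In the crypt of the small intestine, stem cells and their transit-amplifying offspring divide without pause, while Paneth, goblet and absorptive cells have left the cycle. D-type cyclins and Cdk4 release E2F transcription factors from the retinoblastoma family, and E2F then switches on the genes that license origins, build the replication fork and supply nucleotides. Later in the cycle a complex of B-Myb, MuvB and FoxM1 switches on the genes of G2 and mitosis through a promoter element called the cell cycle genes homology region (CHR). Cdkn1a, better known as p21, and Cdkn1b, known as p27, hold the kinases back, and Cdkn1a is a classical target of p53.

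Promoters are shown first because CHR and E2F motifs differed in frequency between the S phase set and the G2 and mitosis set. RefSeq promoters, from 250 bases before to 50 bases after the start of the gene in GRCm38.p6, were matched for 39 of the 48 genes. Not matched were Ccnd1, Ccnd2, Ccne2, Mcm4, Gins2, Ccna2, Aurkb, Tpx2 and Smc4. The CHR core TTTGAA, searched on both strands, was found in 14 of 19 G2 and mitosis promoters, in 1 of 17 S phase promoters and in 18.1% of the 27025 promoters of the whole table. E2F motifs spelled TTTGGCGC, TTTCCCGC, TTTGCCGC or TTTCGCGC, again on both strands, were found in 8 of 17 S phase promoters, in 1 of 19 G2 and mitosis promoters and in 2.3% of all promoters. The letters CCAAT, part of many promoters of this kind, were in 15 of 19 G2 and mitosis promoters, 11 of 17 S phase promoters and 37.9% of all promoters. The same searches gave no TTTGAA and no E2F motif in the windows of Cdkn1a, Cdkn1b and Cdk4. These are matches of letters and do not show that a factor binds there.

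Shown here are the 150 bases before the RefSeq start of Mki67 and Top2a, the genes most used as marks of dividing cells, with TTTGAA or its reverse complement TTCAAA in capitals, and of Mcm6 and Pola1, the helicase and polymerase genes with values in every library further on, with E2F motifs of either strand in capitals. All 4 genes lie on the minus strand. In Mcm6 the capitals nearest the 5′ end are 2 overlapping matches.
Mki67 promoter, chr7:135716380-135716529: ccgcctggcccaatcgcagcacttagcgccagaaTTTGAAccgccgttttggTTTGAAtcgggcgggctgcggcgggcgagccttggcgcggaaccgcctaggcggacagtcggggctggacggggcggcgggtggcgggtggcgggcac
Top2a promoter, chr11:99024190-99024339: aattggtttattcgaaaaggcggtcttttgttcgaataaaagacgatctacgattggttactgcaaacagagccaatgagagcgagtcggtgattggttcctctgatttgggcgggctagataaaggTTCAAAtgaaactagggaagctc
Mcm6 promoter, chr1:128359706-128359855: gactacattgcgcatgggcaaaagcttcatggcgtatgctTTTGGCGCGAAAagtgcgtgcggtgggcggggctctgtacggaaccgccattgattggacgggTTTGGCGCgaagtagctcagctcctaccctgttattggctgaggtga
Pola1 promoter, chrX:93632156-93632305: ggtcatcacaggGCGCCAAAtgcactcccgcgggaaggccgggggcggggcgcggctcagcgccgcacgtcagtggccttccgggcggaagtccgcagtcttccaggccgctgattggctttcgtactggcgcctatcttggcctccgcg

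Each library held between 21866149 and 27850373 counted reads. Counts were compared with edgeR's quasi-likelihood test in one model of the 4 groups with the replicate number as a block, and p-values were adjusted by the Benjamini-Hochberg method over the 15247 genes. A gene is said to pass at an adjusted p under 0.05. Some libraries stood apart from their group in GC slope. The slope of log2 CPM on transcript GC content, taken against the mean of all libraries, was 0.204 per 10 percentage points in norepinephrine replicate 4, and between -0.153 and -0.0761 in the other norepinephrine libraries. UK 14,304 replicate 4 had -0.235, where the other UK 14,304 libraries had between -0.0934 and 0.0642. DMSO replicate 3 had -0.0393, where the other vehicle libraries had between 0.0497 and 0.128. Ribosomal RNA took over 1% of the counts in 7 libraries. These were DMSO vehicle replicates 1, 2 and 3, HCl vehicle replicate 4, norepinephrine replicates 4 and 5, and UK 14,304 replicate 1. Such libraries were thus not evenly divided between UK 14,304 and DMSO vehicle. Results that rest on norepinephrine replicate 4 are given with and without it.

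Every gene of the panel was expressed in the vehicle-treated epithelium. Per kilobase of full exon length, averaged over the 8 vehicle libraries, Ccnd2 had the highest level of the 48 genes at 97.9 CPM per kb. Cdk4 followed with 94.8, Mki67 with 76.1, Cdkn1a with 70.7 and Top2a with 62.3. Exon lengths included bases shared with other genes, where reads were not counted, 7.9% for Ccnd2 and 19.7% for Cdk4. Levels of such genes come out too low, so the order of Ccnd2 and Cdk4 is not settled. Mcm6, a subunit of the replicative helicase, had 56.2 CPM per kb and Ccnb2, a B-type cyclin, 54.1. At the low end lay the E-type cyclin Ccne2 with 4.81 and the spindle pole gene Aspm with 4.94 CPM per kb. The helicase cofactor Gins2 had 5.03 and the mitotic cyclin Ccnb1 5.23 CPM per kb. Gins2 shares 67.3% and Ccne2 17.4% of exon bases with another gene, so their levels are understated and their rank is not settled.

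With norepinephrine, 0 of the 48 genes passed, against 16 of 15247 genes in all (0.105%, of which 0.0131% higher and 0.0918% lower). At an unadjusted p under 0.05 there were 4, namely Cenpe, Aspm and Top2a with positive and Cdkn1a with negative values, and DESeq2 with the same block also called 0 of the 48. Over all genes 2.83% had positive and 5.56% negative values at that level. No gene of the panel had every norepinephrine library above (0.643% of all genes) or below (0.78%) every HCl library, or was lower in 4 of 4 norepinephrine pairs (8.26%). With UK 14,304, 1 of the 48 passed, against 186 of 15247 genes (1.22%), and that gene was Cdkn1a, which fell. At an unadjusted p under 0.05, 10 of the 48 had positive and 2 negative values (6.12% and 8.68% of all genes), and 3, Cdkn1a, Aurka and Cdk4, were lower in 4 of 4 pairs (15.5% of all genes). Across all genes 0.177% passed as higher and 1.04% as lower with UK 14,304. As sets, the 20 S phase genes had a median log2 fold change of 0.00 with norepinephrine and 0.01 with UK 14,304. The 23 G2 and mitosis genes had medians of 0.07 and 0.07, beside -0.01 and 0.00 over all genes tested. Since RNA came from whole organoids, fewer cells of a type and less RNA per cell cannot be told apart in any of these values.

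**Figure D1:**
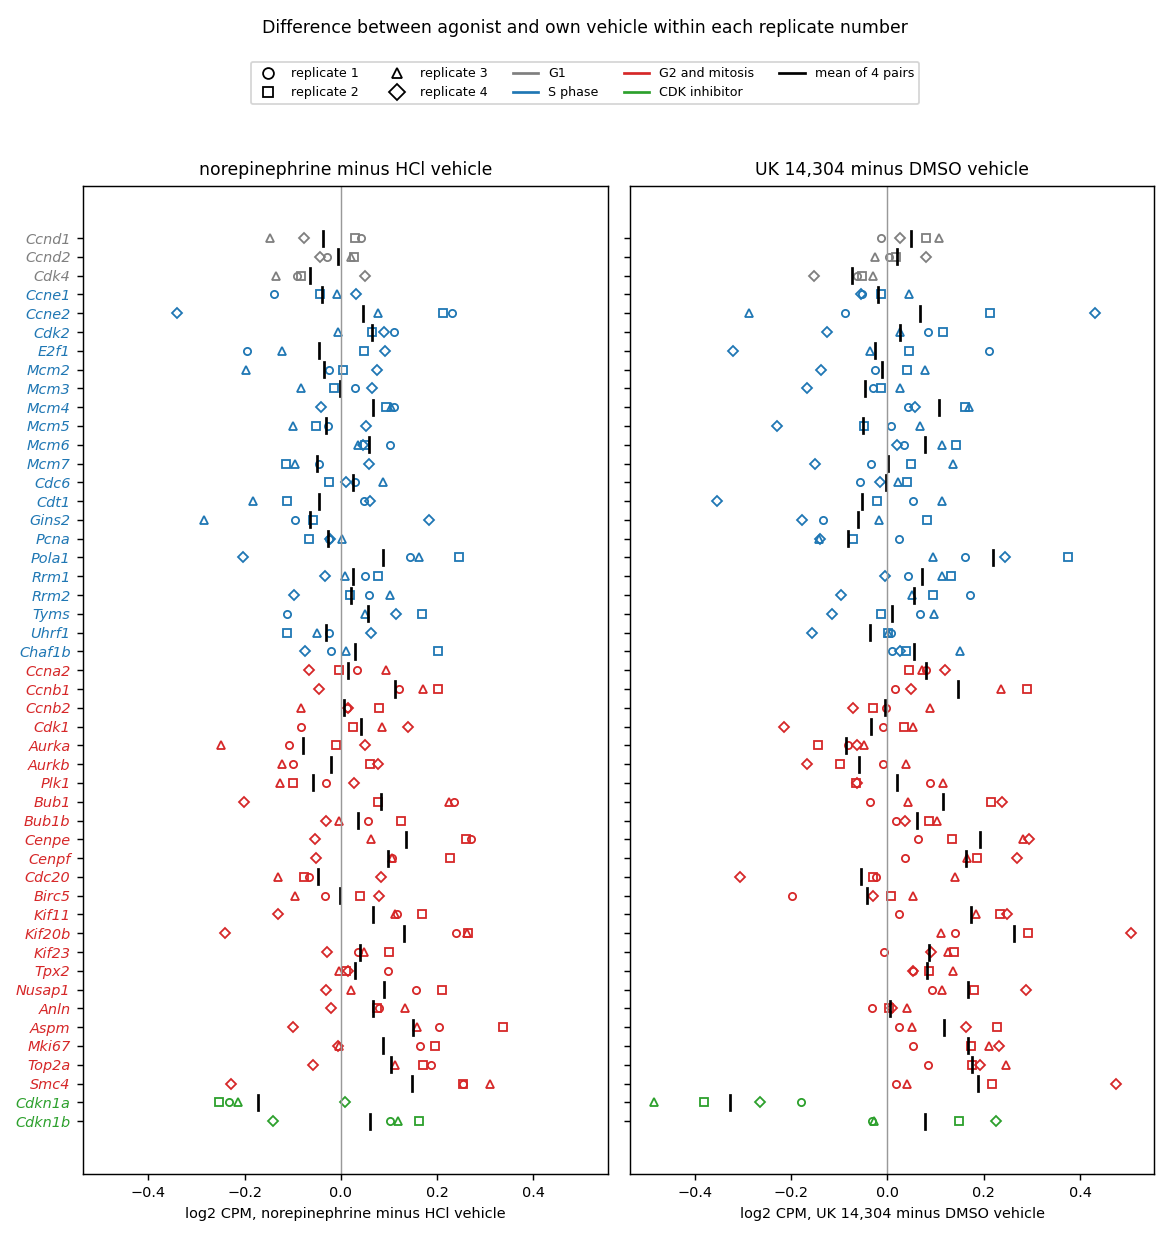
Difference in log2 CPM between each agonist library and the vehicle library of the same replicate number, for all 48 genes ordered by role, with norepinephrine on the left and UK 14,304 on the right, symbols for replicates 1 to 4, a black bar for their mean and colours for the sets. Cdkn1a is to the left of 0 in 4 of 4 UK 14,304 pairs, and among the norepinephrine pairs the diamonds of replicate 4 are often on the other side of 0 from the rest.

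Cdkn1a (ENSMUSG00000023067, GRCm38 chromosome 17, 29090976 to 29100727, plus strand) encodes p21, which binds and blocks cyclin-dependent kinases. Its level in HCl vehicle replicates 1 to 4 was 252, 276, 223 and 261 CPM, and in norepinephrine replicates 1 to 5 it was 214, 231, 192, 263 and 219. In DMSO vehicle replicates 1 to 4 it was 244, 286, 219.9 and 248 CPM, and in UK 14,304 replicates 1 to 5 it was 215, 219.5, 157, 206 and 199.9. The UK 14,304 libraries all lay below the DMSO libraries, by a small margin between replicate 2 of the agonist and replicate 3 of the vehicle, whereas norepinephrine overlapped with HCl. Means were 249.3 ± 27.3 CPM (SD, n = 4) with DMSO and 199.6 ± 25 (SD, n = 5) with UK 14,304, which is -0.32 on the log2 scale (standard error, SE, 0.0543; adjusted p = 0.00451, edgeR), lower in 4 of 4 pairs. For norepinephrine against HCl it was -0.17 (SE 0.0543, adjusted p = 0.556, edgeR), from 252.8 ± 22.3 CPM (SD, n = 4) to 223.8 ± 25.9 (SD, n = 5), and lower in 3 of 4 pairs. Replicate 4 was the exception, with 263 CPM in norepinephrine and 261 in HCl. Tested directly, the UK 14,304 effect minus the norepinephrine effect was -0.15 (SE 0.0748, unadjusted p = 0.0645, adjusted p = 1.0, edgeR), so the agonists were not shown to differ. Without the block, Cdkn1a did not pass with UK 14,304 at the same fold change (SE 0.0994, adjusted p = 0.346, edgeR), nor when all libraries of replicate 2 (adjusted p = 0.1) or of replicate 3 (adjusted p = 0.14) were left out. Without the norepinephrine library of replicate 4, Cdkn1a also passed with norepinephrine, at -0.22 (adjusted p = 0.00265, edgeR). Of its exon bases 7.7% also belong to another annotated gene.

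Cdkn1b encodes p27 and did not pass in either comparison. HCl vehicle replicates 1 to 4 had 84.9, 77.6, 85.8 and 87.0 CPM, and norepinephrine replicates 1 to 5 had 91.2, 86.9, 93.1, 78.9 and 90.8. DMSO vehicle replicates had 78.6, 75.9, 92.8 and 84.1 CPM, and UK 14,304 replicates had 76.9, 84.2, 90.95, 98.4 and 79.1. All groups overlapped. Log2 fold changes were 0.08 with norepinephrine (SE 0.0653, adjusted p = 0.666) and 0.06 with UK 14,304 (SE 0.0647, adjusted p = 0.673, both edgeR). Without the norepinephrine library of replicate 4, Cdkn1b rose with norepinephrine by 0.17 (adjusted p = 0.0298, edgeR).

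Beside the fall of Cdkn1a, other inhibitors and p53 targets were read from fixed lists. Of 9 tested genes among the other inhibitors, pocket proteins and MuvB subunits, 0 passed with either agonist by edgeR, with 1 and 3 at an unadjusted p under 0.05 and medians of 0.00 with norepinephrine and 0.07 with UK 14,304. DESeq2 with the block called 0 and 1 of them, the 1 being Cdkn2b. The nearest was Cdkn2b, which encodes the Cdk4 and Cdk6 inhibitor p15, at -0.18 with UK 14,304 (adjusted p = 0.0637, edgeR) and -0.15 with norepinephrine (adjusted p = 0.556), below its vehicle in 4 of 4 pairs each time. Cdkn2a was counted at most 6 times in a library and was not tested. Of 12 p53 target genes, such as Mdm2, Ccng1 and Zmat3, again 0 passed with either agonist by edgeR, with 1 and 3 at an unadjusted p under 0.05, and their medians were 0.02 and 0.06. DESeq2 called 0 of the 12 in both comparisons. Over all genes the shares at an unadjusted p under 0.05 were 2.83% higher and 5.56% lower with norepinephrine, and 6.12% and 8.68% with UK 14,304. Within that list Plk2 had 0.21, Sesn2 -0.18 and Btg2 -0.11 with UK 14,304, none of which passed.

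Cell types that have left the cycle were measured alongside. All 7 Paneth cell markers had negative fold changes with each agonist, with a median of -0.26 for norepinephrine and -0.24 for UK 14,304. Of these, 2 passed with norepinephrine, the lysozyme gene Lyz1 at -0.37 and the phospholipase gene Pla2g2a at -0.49, and 2 with UK 14,304, Lyz1 at -0.31 and the angiogenin gene Ang4 at -0.27. Their summed level ranged from 3603 to 5222 CPM with HCl and from 2994 to 4029.5 with norepinephrine, and from 3423 to 4985 with DMSO and from 3035 to 4260.2 with UK 14,304. Of 7 goblet cell markers, 6 had negative fold changes with each agonist (medians -0.15 and -0.16), and Agr2, a protein disulfide isomerase needed for mucin folding, passed with UK 14,304 at -0.16. DESeq2 with the block called 5 of 7 Paneth and 2 of 7 goblet markers with each agonist, beside 0.223% of all genes with norepinephrine and 1.78% with UK 14,304, where edgeR called 0.105% and 1.22%. Summed goblet marker levels ranged from 3465 to 5096 CPM with HCl, 2837 to 4529.5 with norepinephrine, 3212 to 5033 with DMSO and 2994 to 4479 with UK 14,304. Of 6 stem cell markers 0 passed with either agonist by edgeR, and their medians were 0.06 with norepinephrine and 0.04 with UK 14,304. At an unadjusted p under 0.05 there were 0 and 2, the 2 being Slc12a2 and Olfm4, both higher (6.12% of all genes). Of 6 enterocyte, 5 enteroendocrine and 4 tuft cell markers 0 passed with either agonist by edgeR, with 0 at an unadjusted p under 0.05 for norepinephrine and 1 enterocyte and 3 tuft markers for UK 14,304. The enterocyte marker was lower (8.68% of all genes) and the 3 tuft markers were higher (6.12%). Tuft markers had positive medians, 0.16 with norepinephrine and 0.2 with UK 14,304, and 3 and 4 of the 4 were positive. Medians were -0.04 and -0.07 for enterocyte and 0.01 and -0.06 for enteroendocrine markers. DESeq2 called 0 of the stem, enterocyte, enteroendocrine and tuft markers with either agonist. Whether the share of Paneth or goblet cells plays a part in the lower Cdkn1a was not tested.

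**Figure D2:**
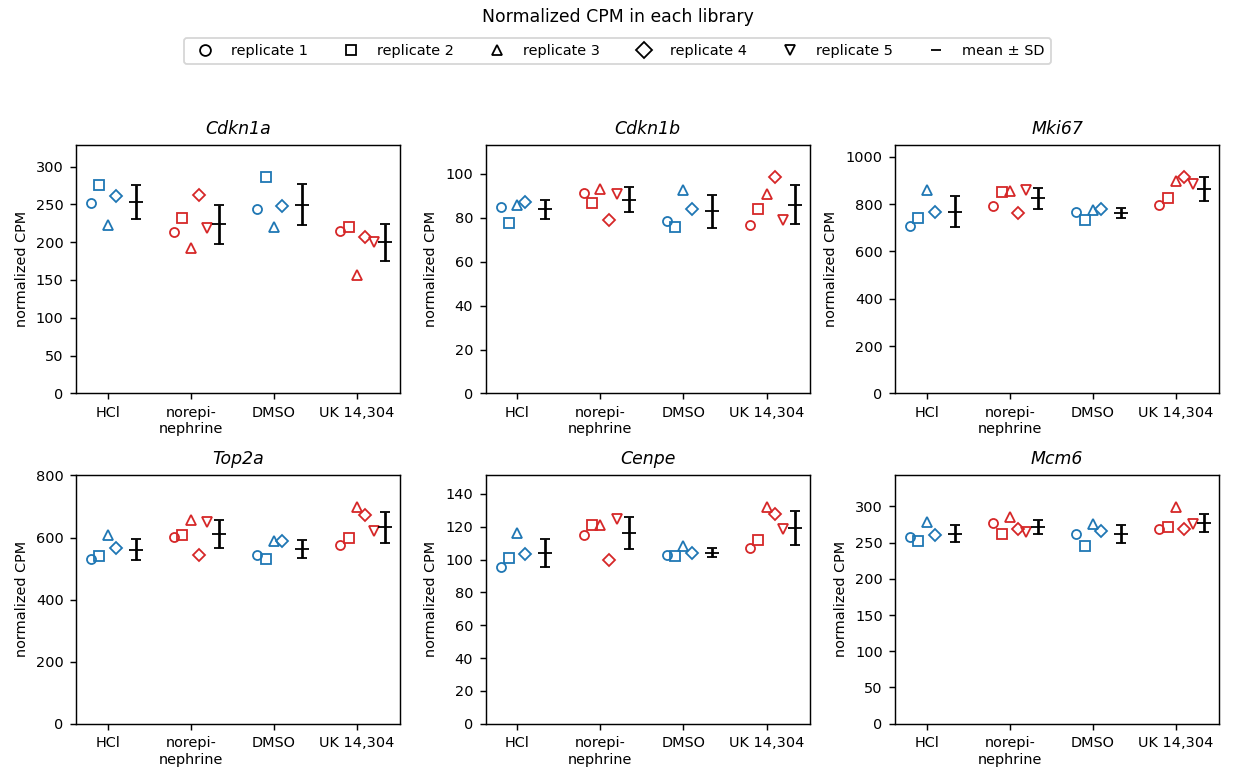
Normalized CPM in each library for Cdkn1a, Cdkn1b, Mki67, Top2a, Cenpe and Mcm6, with axes from 0, vehicle libraries in blue, agonist libraries in red, symbols for the replicate number and bars for mean ± SD. Cdkn1a in UK 14,304 libraries lies between 157 and 219.5 CPM and Mki67 between 795 and 913, each outside the range of the DMSO libraries.

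Of the 3 G1 genes, 0 passed with either agonist by edgeR, with 0 at an unadjusted p under 0.05, where 0.105% and 1.22% of all genes passed. Ccnd1 and Ccnd2, the D-type cyclins that carry growth signals into the cycle, had fold changes between -0.02 and 0.04 on the log2 scale with both agonists. Cdk4, their kinase partner, had 311, 295, 325 and 305 CPM in HCl replicates 1 to 4 and 292, 279, 296, 316 and 273 in norepinephrine replicates 1 to 5. In DMSO replicates it had 314, 293, 311 and 308 CPM, and in UK 14,304 replicates 300.4, 283, 305, 277 and 290.5. Levels overlapped in both comparisons, although the UK 14,304 library was the lower one in 4 of 4 pairs. Fold changes were -0.07 (adjusted p = 0.592) and -0.06 (adjusted p = 0.453, both edgeR). Cdk4 shares 19.7% of its exon bases with another gene, and reads over both were not counted.

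Among the S phase genes 0 of 20 passed with either agonist by edgeR, beside 0.105% and 1.22% of all genes. With norepinephrine 0 had an unadjusted p under 0.05, where 2.83% of all genes were higher and 5.56% lower. With UK 14,304 there were 3 higher and 1 lower, beside 6.12% and 8.68% of all genes. Fold changes ran from -0.07 to 0.12 with norepinephrine and from -0.08 to 0.21 with UK 14,304. The 4 genes of G1/S control, the E-type cyclins, Cdk2 and the transcription factor E2f1, had medians of -0.01 and 0.02. Cdk2, the kinase that drives entry into S phase, had 62.0, 59.8, 68.6 and 59.1 CPM with HCl and 67.0, 62.5, 68.3, 62.9 and 62.3 with norepinephrine. With DMSO it had 59.2, 58.5, 68.6 and 64.0 CPM and with UK 14,304 it had 62.8, 63.4, 69.9, 58.7 and 65.3. All 4 groups overlapped, at fold changes of 0.05 (adjusted p = 0.678) and 0.04 (adjusted p = 0.728, both edgeR).

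Origin licensing and helicase genes, namely Mcm2 to Mcm7, Cdc6, Cdt1 and Gins2, had medians of -0.04 and 0.00. Mcm2 to Mcm7 encode the ring that unwinds DNA at the fork. Mcm4 and Mcm6 stood on the positive side. Mcm4 had 139, 138, 163 and 146 CPM with HCl and 150.2, 147, 175, 142 and 156 with norepinephrine. With DMSO it had 146, 136, 160.0 and 153 CPM and with UK 14,304 it had 151, 152, 179.8, 159 and 152. The groups overlapped, yet UK 14,304 was above DMSO in 4 of 4 pairs, with a fold change of 0.10 (SE 0.0395, unadjusted p = 0.0243, adjusted p = 0.262, edgeR) beside 0.08 with norepinephrine (adjusted p = 0.592). Mcm6 had 258, 252, 279 and 261 CPM with HCl and 277, 261, 286, 269 and 265 with norepinephrine. DMSO libraries had 262, 246, 276 and 265 CPM, and UK 14,304 libraries had 269, 271, 298.5, 269 and 276. It was above its vehicle in 4 of 4 pairs with each agonist, by 0.05 (adjusted p = 0.616) and 0.08 (SE 0.0323, adjusted p = 0.247, both edgeR), and no comparison passed. Mcm3, Mcm5 and Gins2 were on the negative side in both comparisons, between -0.07 and -0.01.

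Genes of DNA and nucleotide synthesis included the most positive and the most negative S phase values with UK 14,304. Pola1, the catalytic subunit of the polymerase that primes each new strand, had 67.9, 63.5, 73.4 and 66.3 CPM with HCl and 75.0, 75.3, 82.2, 57.5 and 74.2 with norepinephrine. With DMSO it had 62.6, 58.4, 79.4 and 69.0 CPM and with UK 14,304 it had 70.0, 75.8, 84.8, 81.8 and 74.7. Norepinephrine replicate 4 was the lowest of the 18 libraries at 57.5 CPM, whereas the other 4 norepinephrine libraries were above every HCl library. Differences were 0.10 against HCl (SE 0.0763, adjusted p = 0.653) and 0.21 against DMSO (SE 0.0756, unadjusted p = 0.0136, adjusted p = 0.212, both edgeR). Pcna, the clamp that holds polymerases on DNA, went the other way, at -0.03 and -0.08 (unadjusted p = 0.0411 with UK 14,304, adjusted p = 0.316). The ribonucleotide reductase genes Rrm1 and Rrm2, the thymidylate synthase gene Tyms, the methylation maintenance gene Uhrf1 and the histone chaperone gene Chaf1b lay between -0.03 and 0.06 throughout.

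A wider list of 47 other S phase genes was added for scale. Of these, 0 passed with either agonist by edgeR, with 2 and 9 at an unadjusted p under 0.05, all with positive values (2.83% and 6.12% of all genes), and DESeq2 called 0 as well. Medians were 0.02 with norepinephrine and 0.06 with UK 14,304, and 18 of the 47 were above DMSO vehicle in 4 of 4 UK 14,304 pairs, beside 14.0% of all genes. The atypical E2F gene E2f8 (0.12) and the primase gene Prim1 (0.16) were among the 3 genes of this list with the smallest p-values with UK 14,304, and neither passed.

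Of the 23 G2 and mitosis genes, 18 had positive fold changes with norepinephrine and 17 with UK 14,304, beside 47.3% and 48.7% of all genes. Their medians of 0.072 and 0.073 became 0.003 and 0.004 when the trend of each library on GC content was removed, as described further on. The medians over all genes were -0.008 and -0.004 before that step and -0.01 and -0.024 after it. None of the 23 passed in either comparison by edgeR, yet 3 with norepinephrine and 7 with UK 14,304 had positive values at an unadjusted p under 0.05, where the share over all genes was 2.83% and 6.12%. In the UK 14,304 pairs 13 of the 23 (56.5%) were higher in 4 of 4, against 14.0% of all genes, and in the norepinephrine pairs 0 of the 23 were, against 5.32%. Medians by pair set norepinephrine replicate 4 apart. They were 0.098, 0.099 and 0.063 in norepinephrine replicates 1, 2 and 3 and -0.03 in replicate 4, and 0.017, 0.133, 0.112 and 0.09 in UK 14,304 replicates 1 to 4.

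By role, with no test between roles and 0 genes passing in any of them by edgeR, the medians were as follows. The 7 spindle and cytokinesis genes, such as the motor genes Kif11, Kif20b and Kif23, all had positive values with both agonists (medians 0.09 and 0.11), as did the mitotic chromosome genes Mki67, Top2a and Smc4 (0.12 and 0.16). The 6 kinetochore and checkpoint genes had medians of 0.07 and 0.08, with Bub1, Bub1b, Cenpe and Cenpf positive and Cdc20 and Birc5 negative in both. The 7 cyclins and kinases of G2 and mitosis had medians of 0.01 and 0.00. Aurka and Aurkb, the Aurora kinases, were on the negative side with both agonists, and the 5 UK 14,304 libraries of Aurka (59.4 to 62.0 CPM) all lay below the DMSO libraries (62.2 to 67.1), with a fold change of -0.08 that did not pass (adjusted p = 0.447, edgeR). Over all genes 1.78% were below DMSO in this way.

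Mki67 (ENSMUSG00000031004, chromosome 7, 135689784 to 135716361, minus strand), which encodes the Ki-67 antigen that coats mitotic chromosomes, had 708, 742, 858 and 764 CPM in HCl replicates 1 to 4 and 794, 849, 855, 761 and 858 in norepinephrine replicates 1 to 5. In DMSO replicates it had 766, 734, 777 and 778 CPM and in UK 14,304 replicates 795, 827, 898, 913 and 884. Every UK 14,304 library was above every DMSO library, a pattern shared with 1.72% of all genes, while norepinephrine overlapped with HCl and was higher in 2 of 4 pairs. The mean went from 763.8 ± 20.8 (SD, n = 4) to 863.6 ± 50.2 CPM (SD, n = 5) with UK 14,304, which is 0.16 on the log2 scale (SE 0.0448, adjusted p = 0.0893, edgeR), which did not pass. For norepinephrine against HCl it was 0.09 (SE 0.0449, adjusted p = 0.592, edgeR), and the difference between the agonists was 0.07 (SE 0.0617, unadjusted p = 0.253).

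Top2a (ENSMUSG00000020914, chromosome 11, 98992943 to 99024189, minus strand), the topoisomerase that untangles sister chromatids, had 529, 540.4, 608 and 566 CPM with HCl and 603, 608, 658, 544 and 649.7 with norepinephrine. With DMSO it had 544, 530.1, 587 and 588 CPM and with UK 14,304 it had 577, 599, 697, 672 and 620.1. Ranges overlapped in both comparisons. Against HCl its log2 value was 0.12 (SE 0.0484, adjusted p = 0.57, higher in 3 of 4 pairs) and against DMSO 0.16 (SE 0.0482, adjusted p = 0.129, higher in 4 of 4 pairs, both edgeR).

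Cenpe, the kinetochore motor that moves chromosomes to the spindle equator, had 95.4, 101, 116 and 104 CPM with HCl and 115, 121, 121, 99.8 and 124 with norepinephrine. DMSO libraries had 103, 101.99, 108 and 104 CPM and UK 14,304 libraries 107, 112, 132, 128 and 118. Only UK 14,304 replicate 1 fell within the DMSO range. Fold changes were 0.15 (SE 0.0585, adjusted p = 0.56) and 0.18 (SE 0.058, adjusted p = 0.16, both edgeR).

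Aspm, which focuses the spindle poles, had 53.7, 54.1, 61.0 and 58.8 CPM with HCl and 61.9, 68.3, 68.1, 54.9 and 66.9 with norepinephrine. With DMSO it had 53.6, 52.7, 65.9 and 58.2 CPM and with UK 14,304 it had 54.4, 61.7, 68.3, 65.2 and 63.3. Norepinephrine replicate 4 was again the library that overlapped with HCl, since the other 4 were above all HCl values. Fold changes were 0.16 (unadjusted p = 0.019, adjusted p = 0.56) and 0.11 (adjusted p = 0.405, both edgeR).

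Nusap1, a microtubule binding protein of the spindle, had 92.2, 86.8, 102.2 and 93.1 CPM with HCl and 103, 100.3, 104, 91.2 and 104 with norepinephrine. DMSO libraries had 87.9, 82.0, 98.9 and 92.2 CPM and UK 14,304 libraries 93.7, 92.9, 107, 113 and 94.9. The groups overlapped, at 0.11 (adjusted p = 0.592) and 0.16 (unadjusted p = 0.0117, adjusted p = 0.204, both edgeR). Ccnb1, the cyclin whose kinase complex triggers mitosis, had 21.9, 20.7, 23.4 and 22.8 CPM with HCl and 23.8, 23.8, 26.3, 22.1 and 25.2 with norepinephrine. With DMSO it had 23.6, 19.4, 21.2 and 23.5 CPM and with UK 14,304 it had 23.8, 23.8, 25.03, 24.3 and 22.95. Its fold change was 0.13 with each agonist (adjusted p = 0.592 and 0.346, edgeR), and ranges overlapped.

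A list of 55 other G2 and mitosis genes gave smaller medians, 0.03 with norepinephrine and 0.04 with UK 14,304. By edgeR 0 of the 55 passed with either agonist, with 5 and 13 at an unadjusted p under 0.05, and DESeq2 called 0 as well. The 5 with norepinephrine were positive (2.83% of all genes), and the 13 with UK 14,304 comprised 9 positive and 4 negative values (6.12% and 8.68%). Mybl2, which encodes the B-Myb factor of the CHR complex, was at -0.17, and the kinase subunit gene Cks1b was at -0.16, each lower in 4 of 4 pairs. The cohesion protector gene Sgo1 was at 0.19 and higher in 4 of 4. Of the 55, 14 were higher and 5 lower in 4 of 4 UK 14,304 pairs, beside 14.0% and 15.5% of all genes.

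Transcript GC content went along with the direction of a gene in both sets. Over all genes tested the median GC content was 50.5%. It was 50.4% for the S phase set (42.0% to 59.0%) and 45.9% for the G2 and mitosis set (37.4% to 56.3%). The 19 G2 and mitosis genes below 50.5% had medians of 0.09 with norepinephrine and 0.11 with UK 14,304, and the other 4 (Aurka, Aurkb, Cdc20 and Plk1) had medians of -0.06 and -0.05. In the S phase set the 10 genes below 50.5% had medians of 0.05 and 0.04, with 9 of 10 positive for each agonist, and the other 10 had medians of -0.05 and -0.02. Across the 43 genes of both sets, which share the same libraries, Pearson's r between GC content and fold change was -0.825 with norepinephrine (Spearman's rho -0.808) and -0.67 with UK 14,304 (rho -0.677). Over all genes it was -0.338 and -0.315. Kif20b, with the lowest GC content of the panel (37.4%), had 0.18 and 0.24, and Cdt1, with the highest (59.0%), had -0.06 and -0.03.

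When the trend of each library on GC content was removed and the block kept, the medians of the G2 and mitosis set came to those values near 0. Over all genes the medians were then -0.01 and -0.024. The 19 G2 and mitosis genes below 50.5% GC had medians of 0.03 and 0.03, with 12 and 13 positive, and the other 4 had -0.01 and -0.03. Pearson's r over the 43 genes was then -0.0239 with norepinephrine and 0.0755 with UK 14,304, where the step is made to take out this trend. Within the sets r had opposite signs. It was 0.344 and 0.422 for the S phase genes, and -0.274 and -0.148 for the G2 and mitosis genes. Mki67 then had 0.11 with UK 14,304 (adjusted p = 0.062) and 0.06 with norepinephrine, and Top2a 0.06 and 0.04. Cdkn1a remained the 1 gene of the panel that passed with UK 14,304, at -0.30 (adjusted p = 0.000345, edgeR), while 3.82% of all genes passed. The fold change of Mcm4 turned to -0.02 with both agonists. A change in GC trend that comes from treatment and one that comes from the library cannot be told apart in this design.

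**Figure D3:**
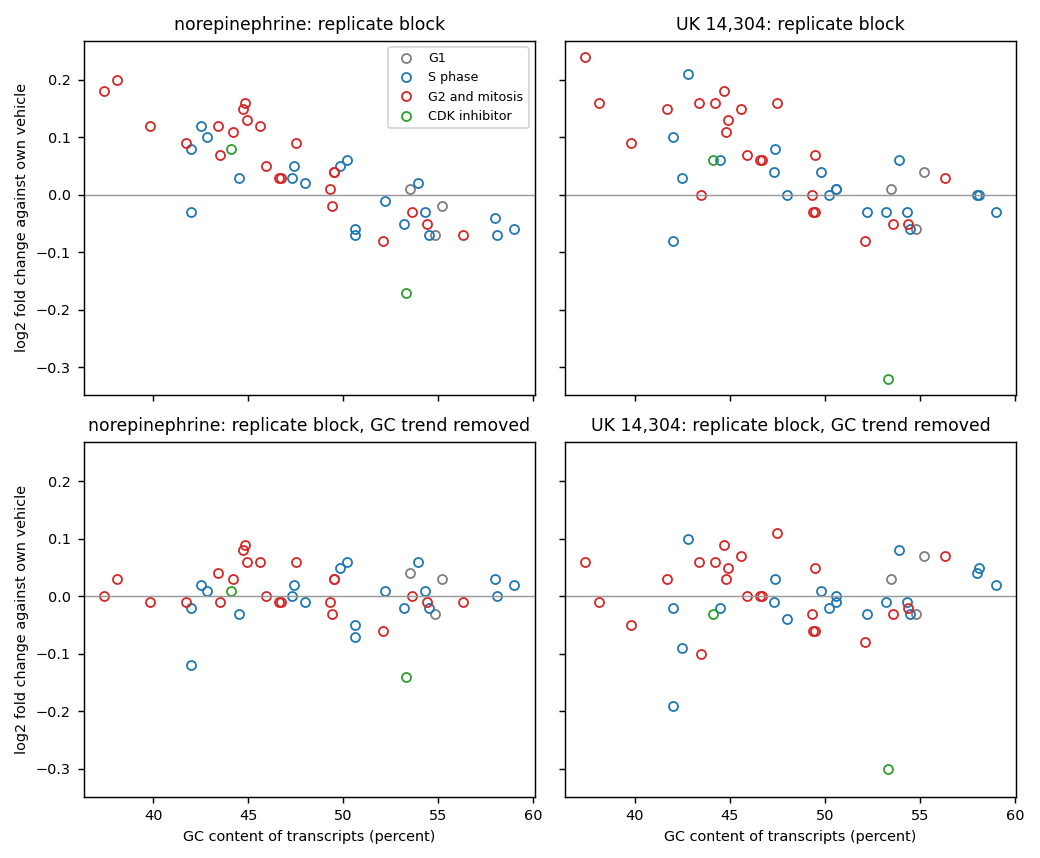
Log2 fold change against own vehicle of the 48 genes, plotted against the GC content of their transcripts in percent, before (upper panels) and after (lower panels) the GC trend of each library was removed. Upper panels slope downwards, with r = -0.825 and -0.67 over the S phase and the G2 and mitosis genes together. Lower panels have r = -0.0239 and 0.0755 over the same genes, positive within the S phase set and negative within the other. Cdkn1a stays at -0.14 and -0.30.

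Which genes of the panel passed also moved with the fit. Without the replicate block 0 of the 48 passed with norepinephrine (0.0% of all genes) and 0 with UK 14,304 (0.0394%) by edgeR. When each agonist was fitted with its own vehicle alone and the block kept, 0 passed with norepinephrine (0.103% of all genes), and 9 with UK 14,304 (3.55%), namely Cdkn1a, lower, and Mki67 (0.18), Top2a (0.19), Cenpe, Cenpf, Nusap1, Kif11, Kif20b and Pola1, higher. With no filter on low counts 1 passed with norepinephrine (Smc4, among 0.458% of all genes) and 7 with UK 14,304 (1.88%). With the GC trend removed 0 passed with norepinephrine, beside 0.223% of all genes. With a term that marked the libraries over 1% ribosomal RNA, Cdkn1a was the 1 gene of the panel to pass with UK 14,304. It was at -0.26 (adjusted p = 0.0344, edgeR), where 0.512% of all genes passed.

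Leaving out the norepinephrine library of replicate 4 changed the count of genes that passed more than any other step. With norepinephrine 17 of the 48 genes then passed, against 16.7% of all genes, and with UK 14,304 10 of the 48, against 8.08%. Without all libraries of number 4 these counts were 15 (15.1%) and 8 (3.83%). The 17 comprised 12 G2 and mitosis genes, all higher (Aspm at 0.24, Cenpe at 0.23, Top2a at 0.19, Mki67 at 0.14, and Cenpf, Nusap1, Bub1, Smc4, Anln, Ccnb1, Kif20b and Kif11), Pola1 at 0.21 and Mcm4 at 0.13 of the S phase set, Cdkn1b at 0.17, and Cdk4 at -0.10 and Cdkn1a at -0.22, both lower. The 10 with UK 14,304 were Cenpf, Nusap1, Cenpe, Mki67, Top2a, Kif20b, Kif11, Pola1 and Mcm4, all higher, and Cdkn1a. In that fit the G2 and mitosis median was 0.129 with norepinephrine and 0.085 with UK 14,304. With the GC trend removed as well, a step added after the data had been seen, 1 of the 48 passed with norepinephrine (Pcna, lower) and 3 with UK 14,304 (Pcna and Cdkn1a, lower, and Mki67, higher at 0.12, adjusted p = 0.0195), while 1.86% and 5.31% of all genes passed.

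The G2 and mitosis genes were also set beside the GC slope of each library. Taken as a median difference from the mean of the own vehicle libraries, they were at 0.051, 0.067, 0.154 and 0.151 in norepinephrine replicates 1, 2, 3 and 5, and at -0.035 in replicate 4. In UK 14,304 they were at 0.025, 0.045, 0.167, 0.133 and 0.063 in replicates 1 to 5. The S phase genes gave 0.031 in norepinephrine replicate 4, between -0.05 and 0.026 in the other 4, and -0.122 in UK 14,304 replicate 4, the library with the steepest negative slope (-0.235), where the other 4 had between -0.034 and 0.115.

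**Figure D4:**
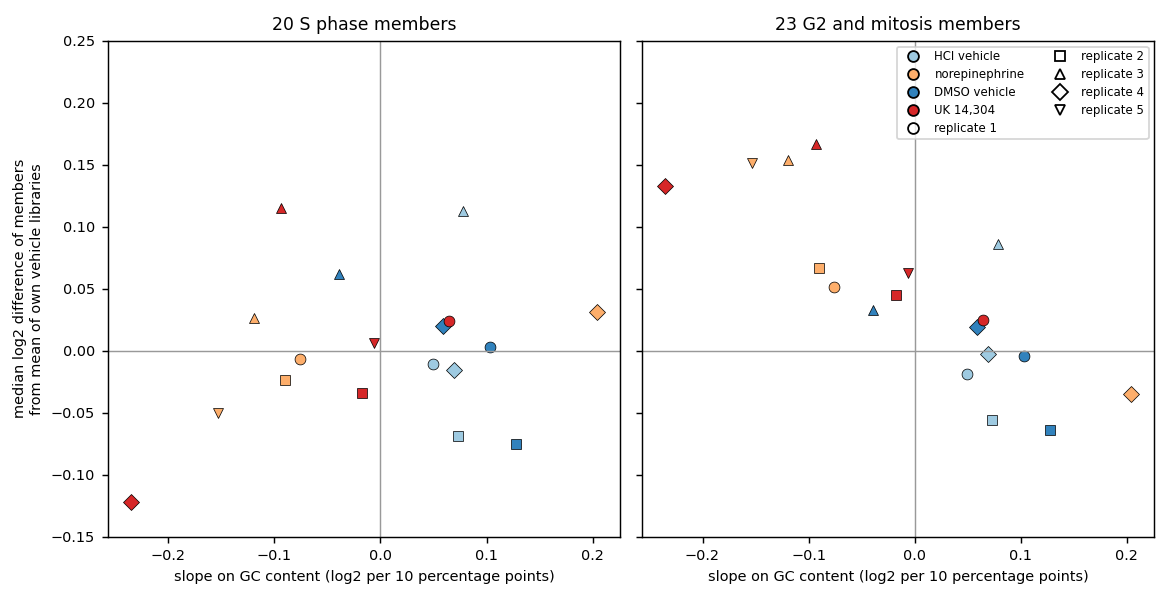
Median log2 difference of the S phase genes (left) and of the G2 and mitosis genes (right) from the mean of the own vehicle libraries, for each of the 18 libraries, against the slope of that library on GC content in log2 per 10 percentage points. In the right panel norepinephrine replicate 4 (slope 0.204) lies at -0.035 and UK 14,304 replicate 4 (slope -0.235) at 0.133, and in the left panel the latter lies at -0.122.

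The agonists and the vehicles were also compared directly. When the norepinephrine effect was subtracted from the UK 14,304 effect, 0 of the 48 genes passed by edgeR, as did 0 of 15247 genes (0.0%). At an unadjusted p under 0.05 there were 0 of the 48, beside 157 higher and 248 lower among the 15247 genes. So low a background share leaves the 0 of the 48 uninformative about the panel. DESeq2 with the block called 0 of the 48 too. The medians of this difference were 0.02 for the S phase set and 0.02 for the G2 and mitosis set. HCl against DMSO vehicle likewise gave 0 of the 48 and 0.0% of all genes by edgeR, and 0 of the 48 by DESeq2. At an unadjusted p under 0.05 there were 0 of the 48, beside 134 higher and 143 lower among the 15247 genes. Median differences between the vehicles were 0.00 for both sets, and the lowest unadjusted p among the 48 was 0.114.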

How the data were processed

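RNA of 18 organoid cultures was sequenced as 50 bp single reads. The authors mapped the reads with STAR to GRCm38 and deposited raw counts per gene, without normalization. The file header names featureCounts 2.0.1 and Ensembl release 102, where the submitters' processing notes name Subread 1.6.4. That command counted neither multi-mapped reads nor reads over several genes, and ignored strand. All 18 columns were matched to samples by name. Total counts were 21866149 to 27850373 per library.

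The count model was fitted with edgeR 4.0.16 under R 4.3.3 (TMM, filterByExpr by group, robust quasi-likelihood fit), with DESeq2 1.42.0 as an alternative. Fold changes are on the log2 scale, and CPM are TMM-normalized, with a prior count of 2 on the log scale. The replicate number entered as a block because libraries of the same number deviated together in every pair of agonist and vehicle (correlation over genes from 0.119 to 0.431 for norepinephrine and HCl, and from 0.155 to 0.52 for UK 14,304 and DMSO). Between norepinephrine and UK 14,304 libraries of the same number it was -0.212 in replicate 4 and 0.0407 to 0.436 in the others. Replicate 5, with no vehicle library, adds to a vehicle comparison only through the shared fit. What the number stands for is not given in the labels, so p-values measure the spread between these samples. GC content is the mean over the transcripts of a gene in the given annotation, and its trend was removed with lowess (span 0.3). The edgeR fit with the block was tested on simulated counts that had no GC trend and no library apart from its group. That test therefore does not cover such libraries.

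Genes with values in every library were Mki67, Top2a, Cdkn1a, Cdkn1b, any gene of the panel that passed, and the gene of each role with the smallest p in each comparison. Aurka, Pcna, Kif20b, Cdt1 and other genes outside this rule were chosen after their values were seen. The panel and all lists were chosen with earlier results of these data known. Genes of the wider lists are named where they pass or are among the 3 with the smallest p. One gene that this rule names is not reported here.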

Additional observations from a re-analysis of the deposited data

Results flagged for a closer look

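Among 60 groups of 4 or 5 libraries that were checked for a value far from the others, 3 were found, where chance gives about 1 in 20. In UK 14,304 replicate 3, Mcm4 had 179.8 CPM, above the 151 to 159 CPM of the other 4 libraries. In the same library Mcm6 had 298.5 CPM, above 269 to 276. Replicate 3 was also the highest library of each other group for both genes. In HCl, norepinephrine and DMSO it had 163, 175 and 160.0 CPM of Mcm4, and 279, 286 and 276 of Mcm6. The check was made within groups and took no account of the replicate number. In norepinephrine replicate 4, the library with the GC slope of 0.204, Nusap1 had 91.2 CPM, below the 100.3 to 104 CPM of the other 4.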

How the results depend on the processing

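The count of genes that passed depended on the block and on single libraries. With norepinephrine it was 16 with the replicate block and 0 without it, 153 without a filter, 34 by DESeq2 with the block and 0 by DESeq2 without it, 34 with the GC trend removed, and 282 with that and the norepinephrine library of replicate 4 left out, an alternative chosen after seeing the data. With UK 14,304 it was 186, and 6 without the block, 627 without a filter, 525 with the own vehicle only, 46 by DESeq2 without the block, 582 with the GC trend removed, 78 with a ribosomal RNA term, and 805 in the combined alternative. Of the 48 genes, 0 passed with norepinephrine, and 1 without a filter and 1 in the combined alternative. With UK 14,304 1 passed (Cdkn1a), and 0 without the block by edgeR or DESeq2, 7 without a filter, 9 with the own vehicle only and 3 in the combined alternative. The difference between the agonists gave 1 gene by DESeq2 with the block. G2 and mitosis medians of 0.072 and 0.073 became 0.003 and 0.004 with the GC trend removed and 0.006 and 0.011 in the combined alternative. Medians over all genes were -0.01 and -0.024 with the GC trend removed, and 0.0 and -0.016 in the combined alternative. Mcm4 reversed to -0.02 with both agonists after GC removal, and to -0.05 (norepinephrine) and -0.01 (UK 14,304) in the combined alternative. Cdkn1b with UK 14,304 reversed to -0.03 and -0.02 in those fits, and ranged from -0.01 (without UK 14,304 replicate 4) to 0.11 when 1 library was left out. Leaving out 1 library or 1 replicate number at a time gave 4 to 2529 genes and 0 to 17 of the 48 with norepinephrine, and 23 to 1225 genes and 0 to 10 of the 48 with UK 14,304. The highest counts came without norepinephrine replicate 4. Without number 4 as a whole they were 2300 genes and 15 of the 48, and 585 genes and 8 of the 48. The count of UK 14,304 genes was 98, 24 and 23 without replicate numbers 1, 2 and 3, 68 and 95 without DMSO replicates 2 and 3, and 119 and 91 without UK 14,304 replicates 2 and 3. For norepinephrine it was 4, 7 and 5 without numbers 1, 2 and 3, 10 without HCl replicate 1 and 27 without UK 14,304 replicate 4. Medians ranged from -0.010 to 0.022 (S phase) and 0.058 to 0.129 (G2 and mitosis) with norepinephrine, and from -0.006 to 0.048 and 0.061 to 0.108 with UK 14,304. The causes were not tested.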
